A study of Mus musculus with 3 samples.

Results

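The loci described are those of 10 transcription factor genes, 7 of the ETS family (*Ets1*, *Fli1*, *Erg*, *Elf1*, *Etv6*, *Spi1* and *Spib*) and 3 of the RUNX family (*Runx1*, *Runx2* and *Runx3*). A locus is the gene body as annotated in GENCODE, extended by 30 kb on both sides, and every ATAC-seq peak that overlaps it was taken from each list of peaks. The 10 loci span 2046 kb. They held 84 to 96 peaks per list, which merged into 121 regions of the 50965 regions found across the genome by joining peaks of any list that overlap by at least 1 bp.

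Open chromatin had been measured by ATAC-seq, in which a transposase cuts and tags accessible DNA. The samples were pre/pro-B-cell lines of the mouse. They had been derived from C57BL/6 bone marrow by retroviral transfer of the BCR-ABL(p185) oncogene. Both alleles of *Cdk6* were wildtype (Cdk6+/+, called WT) or carried the K43M change that inactivates the kinase (Cdk6 KM/KM, called K43M). Each genotype was represented by 2 lines with 1 library each. All lines thus share the oncogene and its viral vector, and a line that grew out of transduced cells can carry features of its own. The labels name no treatment and no age of the donor mice. The libraries are called WT unnumbered, WT replicate 2, K43M replicate 1 and K43M replicate 2, and sets of 4 values below follow this order. WT unnumbered has no labelled sample here, and its genotype comes from the description of the study's design. That description also says that the data of this line came from an earlier deposit and were analysed again. For this list, effects of the line, of an earlier preparation and of the genotype cannot be told apart. Since every genotype comparison rests on 2 lines a side, an exact permutation test over the libraries cannot give a two-sided p below 0.333, and the comparisons below are descriptions of these lists.

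ETS factors bind DNA around a GGAA core. Several of them (FLI1, ERG, ETV6 and PU.1, the product of *Spi1*) are needed for blood stem cells or their early progeny. PU.1 and Spi-B act in the B lineage, and ETS1 in lymphoid cells. RUNX factors bind a TGTGGT core as a heterodimer with CBFβ. Each *Runx* gene has a distal promoter, P1, and a proximal promoter, P2, which give proteins with different N-termini. RUNX1 is needed for the emergence of blood stem cells and for B-cell development, RUNX3 acts mainly in lymphocytes, and RUNX2 is best known for its role in bone.

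The lists held 33038, 34248, 39038 and 34752 peaks. Each peak has 3 values from the peak caller MACS2 that are used here. The fold enrichment compares the summit with the local background. The percentile is the position of the peak's -log10 q within its own list, where 100 is the strongest peak. The summit pileup is the number of read ends near the summit, recovered from the fold enrichment and -log10 p. Its intervals are exact 95% Poisson intervals and cover counting error only. The lowest pileup that was called at the genome-wide background was 7, 6, 6 and 6 read ends. This is the limit of detection where the local background is no higher, and it rises with the local background. The cell type was checked by promoter peaks at marker genes. All 10 B-lineage markers had one in both WT lists and in K43M replicate 1, and 8 of 10 in K43M replicate 2, where *Cd79b* and *Rag1* had none. Promoter peaks were rarer at T-lineage genes (0, 1, 0 and 0 of 6), myeloid genes (1, 1, 0 and 0 of 7), erythroid and megakaryocyte genes (0, 1, 1 and 1 of 6) and genes of other tissues (0, 1, 1 and 1 of 6). The myeloid gene was *Lyz2*, at percentiles 46.3 and 47.4 of the WT lists. The T-lineage gene was *Cd3d*, at percentile 86.9 of WT replicate 2. The erythroid and megakaryocyte gene was *Itga2b*, at 30.9 in WT replicate 2 and 67.4 and 66.1 in the K43M lists. The part of such differences in the results below was not tested.

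The number of peaks at the loci was 84 and 90 in the WT lists and 96 and 86 in the K43M lists. The mean was 87 in WT and 91 in K43M, a difference of 4, while the lists differed by 6 within WT and by 10 within K43M (two-sided exact permutation p = 0.667, n = 2 and 2). As a share of all peaks this was 0.254%, 0.263%, 0.246% and 0.247%. The loci therefore held about as many peaks in either genotype, and the difference was within the spread between lines. It turned to -0.5 when each list was reduced to its best 33038 peaks, and to -1 without K43M replicate 1.

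**Figure D1:**
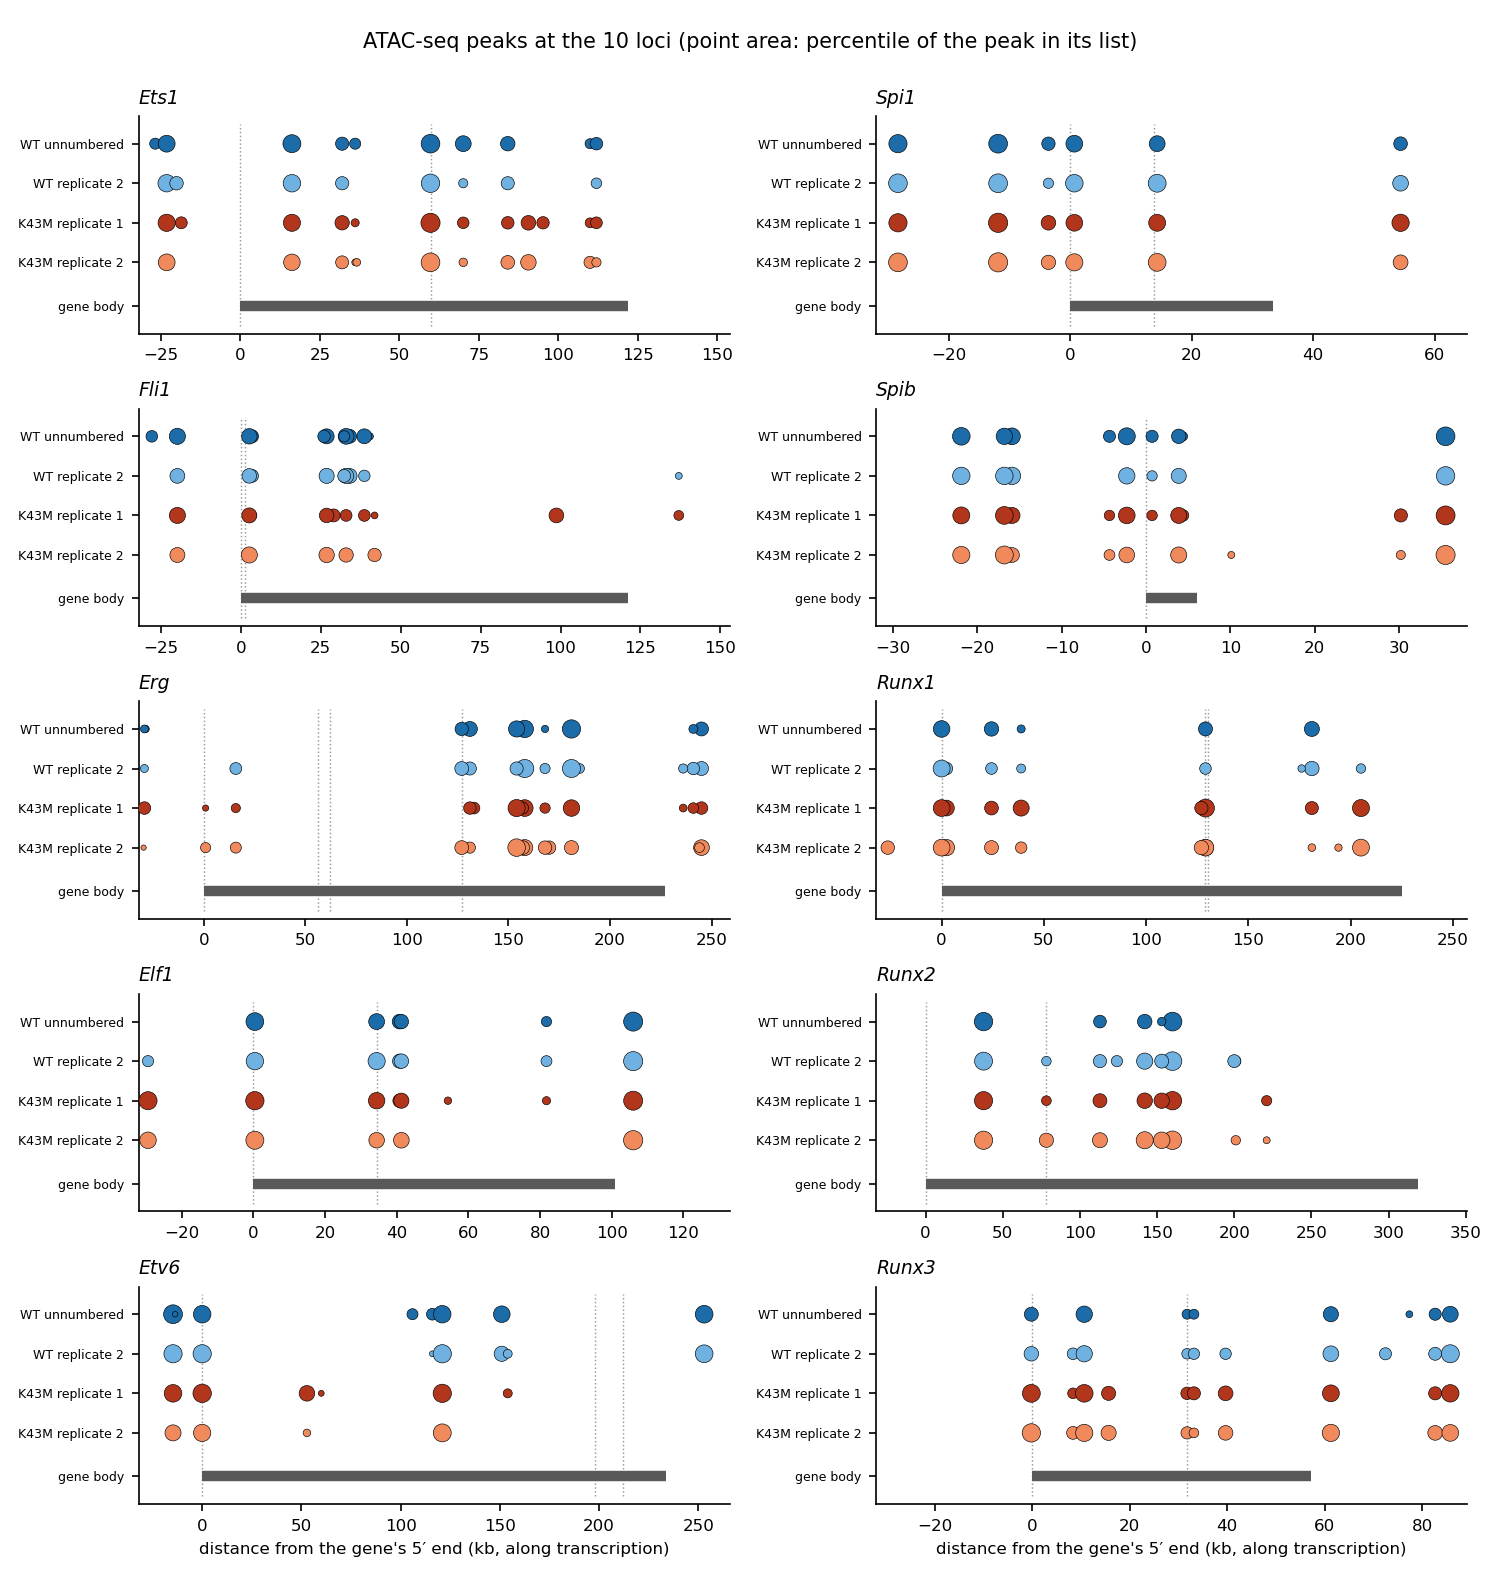
Peaks at the 10 loci by distance from the gene's 5′ end in kb, along the direction of transcription. Each row of points is 1 list, the point area grows with the percentile of the strongest peak of the region in that list, points sit at the summit of the list that ranks the region best, the bar is the gene body and dotted lines mark the promoters. *Spi1* has the same 6 regions in all 4 lists, while *Etv6* has a region 253 kb from its 5′ end in the WT lists alone.

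Of the 121 regions, 54 (44.6%, Wilson 95% interval 36.1 to 53.5%) had a peak in all 4 lists, against 41.2% of all regions of the genome. Strictly WT-only regions, with a peak in both WT lists and in neither K43M list, numbered 6 (4.96%), against 4.51% of all regions. Strictly K43M-only regions numbered 9 (7.44%), against 7.64%. These shares are near those of the genome. A further 18 regions had a peak in 3 lists, 5 in 1 list of each genotype and 29 in a single list. All 6 strictly WT-only regions lay at ETS loci (3 at *Etv6*, 2 at *Fli1* and 1 at *Erg*). The RUNX loci held 0 of 34 regions of this kind (Wilson 95% interval 0 to 10.2%), which includes the 4.51% of all regions. The 9 strictly K43M-only regions were spread over 8 loci: *Erg* had 2, and *Ets1*, *Fli1*, *Etv6*, *Spib*, *Runx1*, *Runx2* and *Runx3* had 1 each. *Elf1* and *Spi1* had no region of either kind. When a single list stands for its genotype these counts rise by construction. Strictly WT-only regions then numbered 12 of 113 without WT unnumbered (against 11.5% of all regions), 15 of 115 without WT replicate 2 (11.4%) and 14 of 117 without K43M replicate 1 (9.19%). Strictly K43M-only regions numbered 16 of 115 without WT replicate 2 (against 12.6%), 17 of 117 without K43M replicate 1 (15.6%) and 17 of 116 without K43M replicate 2 (19.5%).

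Most of the regions lay away from promoters. A promoter was defined as the window from 2000 bp before to 200 bp after an annotated start, with starts of a gene within 1000 bp joined. By the windows of single starts, 17 regions touched a promoter of the gene itself, 13 a promoter of another gene, and 91 (75.2%) none. Among the 91, the summit lay in an intron of the gene in 62, in an exon in 2, in the upstream flank in 13 and in the downstream flank in 14. Of these 91, 5 were strictly WT-only (5.49%, against 5.67% of all regions outside promoters) and 7 strictly K43M-only (7.69%, against 8.62%).

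The 10 genes have 23 promoters by this definition, of which 11 (47.8%, interval 29.2 to 67%) had a peak in all 4 lists, 3 in some lists and 9 in none. Among the promoters of all protein-coding genes the share with a peak in all 4 lists was 24.9%. Counted by gene, 7 of the 10 had a promoter peak in all 4 lists, against 47.5% of protein-coding genes. *Spib* counts among the 11 promoters and the 7 genes only because K43M replicate 2 had a peak of another, upstream region in the window. The other 3, *Fli1*, *Erg* and *Runx2*, had one in 3 lists. The choice of loci did not use CpG content. The ratio of observed to expected CpG over 1 kb ran from 0.0869 to 0.973 at the 14 promoters with a peak in at least 3 lists and from 0.164 to 0.576 at the 9 with none, so the ranges overlapped. With a limit of 0.6, set after the values were seen, 8 of 8 promoters above it had a peak in at least 3 lists, against 75.9% of the promoters of all protein-coding genes. At or below it 6 of 15 did, against 11.9%. The 8 include both *Runx1* P2 promoters, which share their peaks.

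**Figure D2:**
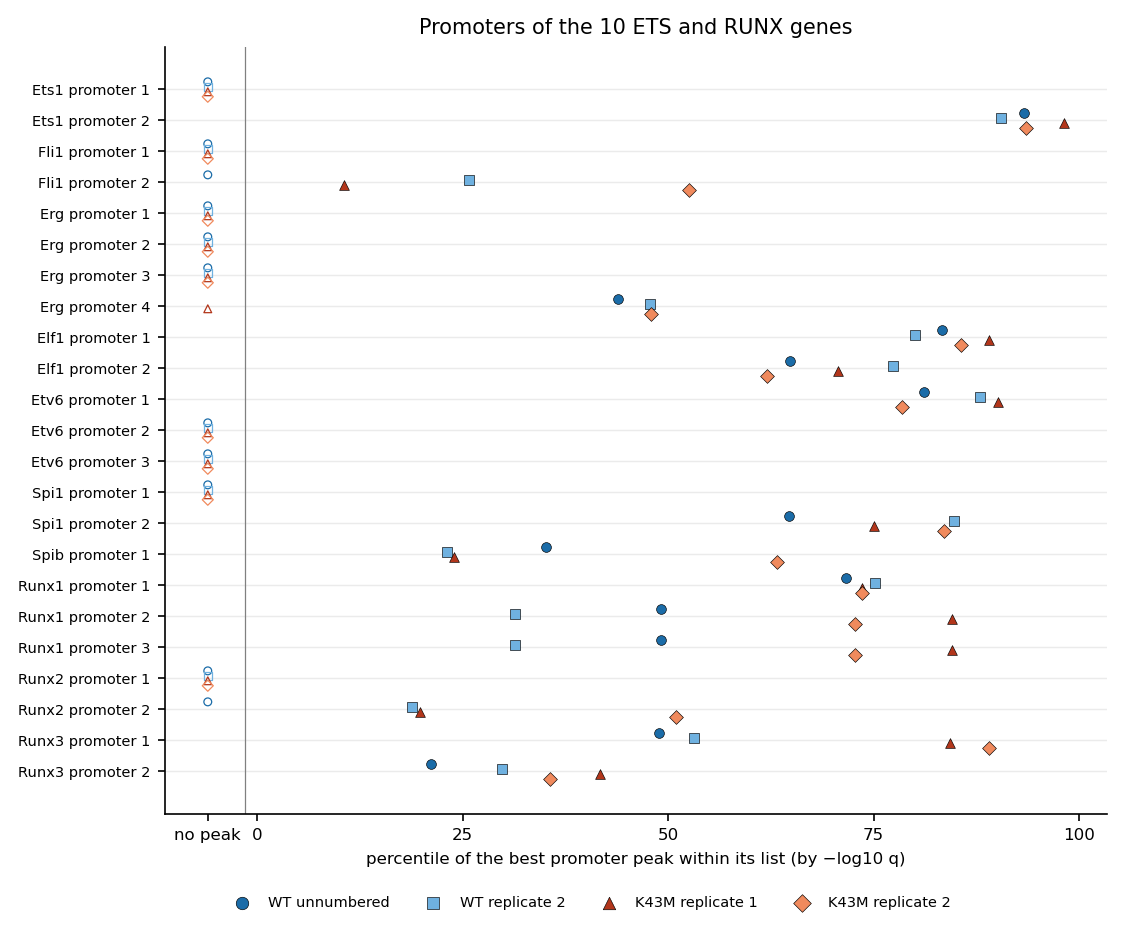
Percentile of the strongest promoter peak within each list (x axis, by -log10 q) at the 23 promoters, numbered along the direction of transcription. Filled points are the 4 lists and open points on the left are lists with no promoter peak. *Runx3* promoter 1 and *Runx1* promoter 2 have both K43M lists to the right of both WT lists, while *Ets1* promoter 2 is above 90 in every list. At *Spib* the point of K43M replicate 2 belongs to an upstream region and the other points to the region at the starts. At *Runx3* promoter 2 the lists take their points from different neighbouring regions.

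*Ets1* (chr9:32636221-32757820, plus strand, mm10), a factor of lymphoid cells, had 15 regions, 7 of them in all 4 lists. Its upstream start, which carries no protein-coding transcript in the annotation, had no peak in any list. The promoter of its protein-coding transcripts, 59.8 kb further in, had the highest percentile in every list among the promoters of the 10 genes. Its fold enrichment was 12.5, 11.6, 15.1 and 12.7, at percentiles 93.3, 90.5, 98.2 and 93.5, and both K43M lists ranked it above both WT lists by a small margin. The intron upstream of that promoter held the strongest region away from promoters, 16.2 kb past the first start (chr9:32652031-32652615). Its percentiles ran the other way, at 85.4, 80.6, 76.7 and 71.5, with pileups of 50, 44, 37 and 30. A strictly K43M-only region lay in an intron 90.6 kb from the first start (chr9:32726565-32726980), with fold enrichments of 6.88 and 7.83 and a pileup of 25 in both K43M lists. The nearest WT peaks were 5693 and 5576 bp away.

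*Fli1* (chr9:32422204-32542861, minus strand) lies next to *Ets1* on the same chromosome and is transcribed away from it. It had 15 regions, 4 of them in all 4 lists. The first of its starts had no peak. The second, 1266 bp further in, had a peak in 3 lists, at percentiles 25.8, 10.6 and 52.6 of WT replicate 2, K43M replicate 1 and K43M replicate 2. In WT unnumbered the nearest peak of the same merged region lay further into the gene, outside the window, and a window reaching 500 bp to each side did include it. The merged region had a peak in all 4 lists, and its strongest peaks stood at percentiles 60.9, 53.8, 57.6 and 67.4. A cluster in the introns 26 to 41.8 kb from the 5′ end held both genotype-only kinds. The strictly WT-only region at 34 kb (chr9:32508745-32508992) had fold enrichments of 4.44 and 5.43 and pileups of 40 and 36. A second, at 32.3 kb, had 3.71 and 4.56. Both flank a region shared by all lists at 32.9 kb, with percentiles of 64.5, 59.2, 32.3 and 51.6, in which both WT lists ranked above both K43M lists. K43M peaks ended only 602 and 693 bp from the first of these and 281 and 214 bp from the second. The strictly K43M-only region at 41.8 kb was weak, with fold enrichments of 3.6 and 5.53. The strongest shared region outside promoters lay 19.9 kb upstream of the gene (chr9:32562348-32562893), at percentiles 67.5, 55.7, 67.4 and 57.1.

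The letters GAGGAAGT, the form of the ETS motif that PU.1 prefers, were found in the upstream region and in the first of the WT-only regions. The 201 bp around the summit are shown because, of the *Fli1* regions described here, these hold the letters. Both are given on the plus strand of mm10, opposite to the gene, from chr9:32562619-32562819 and chr9:32508768-32508968, with the reverse complement of the motif in capitals.
Fli1 upstream region, all 4 lists: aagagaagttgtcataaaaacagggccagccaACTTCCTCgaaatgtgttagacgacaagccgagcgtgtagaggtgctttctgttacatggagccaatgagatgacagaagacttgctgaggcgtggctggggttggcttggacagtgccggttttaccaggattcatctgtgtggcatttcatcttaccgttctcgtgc
Fli1 intronic region, WT-only: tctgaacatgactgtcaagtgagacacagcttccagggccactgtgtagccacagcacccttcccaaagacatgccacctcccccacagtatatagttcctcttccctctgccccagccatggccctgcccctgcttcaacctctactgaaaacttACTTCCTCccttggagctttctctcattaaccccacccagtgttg

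*Erg* (chr16:95359169-95586593, minus strand), a relative of *Fli1*, had 20 regions, the most of the 10 loci, with 6 in all 4 lists. Of its 4 promoters the first 3 had no peak in any list. The fourth, 127 kb into the gene, had a peak in WT unnumbered, WT replicate 2 and K43M replicate 2, with fold enrichments of 4.04, 4.49 and 4.08. Its pileups there were 41, 35 and 37. The nearest peak of K43M replicate 1 was 3192 bp away. Near the first start the picture was different. A strictly K43M-only region (chr16:95585312-95585942) had its summit 932 bp inside the gene, beyond the promoter window. It was weak, with pileups of 8 and 13 read ends at percentiles 3.73 and 22.4, and the first of these is close to the limit of detection. The nearest WT peaks were 29087 and 14422 bp away.

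Further into *Erg*, past the fourth promoter, 5 regions between 131 and 181 kb from the 5′ end were shared by all lists. The one at 181 kb (chr16:95405494-95406206) had percentiles of 88.8, 86.7, 71 and 49.6 and pileups of 69, 59, 36 and 24, so that both WT lists lay above both K43M lists. The one at 158 kb also ranked higher in WT (80, 87.3, 72.9 and 67.2), as did that at 131 kb (56.8, 41.6, 37 and 28.6). Regions at 154 kb (67.8, 42.6, 77.3 and 81.1) and 168 kb (7.95, 22.4, 23.2 and 44.7) ranked higher in K43M. Neighbouring regions of 1 gene body thus differed in opposite directions. A strictly K43M-only region at 157 kb had fold enrichments of only 3.06 and 3.4 but pileups of 43 and 47, in a surrounding with a high density of read ends. A strictly WT-only region past the gene's 3′ end had fold enrichments of 3.23 and 3.54, at percentiles 1.72 and 4.81, among the weakest of the lists.

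*Elf1* (chr14:79481194-79582494, plus strand) had 8 regions, 4 in all 4 lists. Both of its promoters had a peak in every list. The first, shared with the divergent gene *Wbp4*, had percentiles of 83.3, 80, 89.1 and 85.7, and the second, 34.5 kb further in, of 64.8, 77.4, 70.7 and 62. The first ranked higher in both K43M lists and the lists overlapped at the second. The promoter of *Kbtbd6* in the upstream flank had no peak in WT unnumbered and fold enrichments of 6.09, 13.8 and 10.2 in the other lists, with pileups of 12, 48 and 26.

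*Etv6* (chr6:134035700-134270158, plus strand), which encodes a repressor of the family, had 12 regions along and around its 234 kb, 3 of them in all 4 lists. Its first promoter had a peak in every list, with fold enrichments of 6.75, 7.61, 7.39 and 6.21 and percentiles of 81.1, 87.9, 90.2 and 78.5. The groups overlapped. The internal starts, which carry no protein-coding transcript, had no peak. *Etv6* also held the best-ranked genotype-only region of all 10 loci. It lay 253 kb from the 5′ end, in the flank past the 3′ end of the gene (chr6:134288419-134289131). The fold enrichments were 11.9 and 10.9 in the WT lists, at percentiles 82.8 and 83.1, with pileups of 51 (38 to 67.1) and 49 (36.3 to 64.8). No K43M list had a peak within 77237 bp, and a summit of 6 read ends at the genome-wide background could have been called in either. A higher local background raises this limit, and that of the K43M lists is not known here. In the WT lists it was 2.57 and 3.16 times the genome-wide background. By the lower of its percentiles the region was number 8 of the 2299 strictly WT-only regions of the genome, whose median was 19.9. A second, intronic region 151 kb from the 5′ end (chr6:134186215-134186925) had fold enrichments of 7.22 and 6.37 with pileups of 53 and 33, and was number 92 of 2299. The nearest K43M peaks were 3035 and 29320 bp away. The third strictly WT-only region, at 116 kb, was weak in WT replicate 2 (percentiles 32 and 2). A shared region 14.7 kb upstream (chr6:134020564-134021374) was higher in WT by percentile (94.3, 87.8, 81.6 and 66.6) and by pileup (76, 55, 38 and 25). Its fold enrichments of 13.5, 12.1, 13.7 and 9.15 overlapped between the genotypes. The local background around it was also higher in WT, at 3.61, 3.19, 1.67 and 1.9 times the genome-wide background. The shared intronic region at 121 kb was not higher in WT, with percentiles of 80.7, 88.5, 88.7 and 85.3. The strictly K43M-only region of the locus, at 52.8 kb, differed between the K43M lists, with fold enrichments of 8.38 and 4.58.

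*Spi1* (chr2:91082390-91115756, plus strand) encodes PU.1. All 6 of its regions were open in all 4 lists, the only locus of which this held. The region at its first start began just past the promoter window, with the summit 0.654 kb inside the gene, and so counted as intronic (chr2:91082634-91083678). With a window reaching 500 bp to each side it counted as a promoter peak in every list. Its percentiles were 73.6, 81.1, 73 and 76.9, and the groups overlapped. The second promoter, 13.7 kb further in, had fold enrichments of 7.77, 9.86, 8.24 and 9.72. Here too the groups overlapped. Of the 6 regions, 2 ranked higher in both K43M lists, against 26.6% of all shared regions. Both WT lists ranked higher at 0, against 18.3%. The 2 were the promoter of the neighbour *Slc39a13* (94, 94.1, 99.1 and 98.2) and a region 3.61 kb upstream of *Spi1* (43.8, 22.9, 53.6 and 51.7).

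*Spib* (chr7:44525993-44532071, minus strand), which encodes Spi-B, is the shortest of the genes at 6.08 kb and had the densest locus, with 13.6 peaks per 100 kb on average over the lists. Most of its 66.1 kb window is flank, which takes in peaks at promoters of *Emc10*, *Fam71e1*, *Pold1* and *Nr1h2*. The region at its annotated starts had fold enrichments of 4.01, 3.75 and 3.65 in 3 lists and no peak in K43M replicate 2, whose nearest peak was 2404 bp away. The region 2.29 kb upstream, which also falls in a promoter window of the overlapping gene *Pold1*, had a peak in every list (percentiles 75.8, 69.8, 72.5 and 63.2). In K43M replicate 2 alone this peak reached into the *Spib* promoter window and was counted as its promoter peak. An exonic region 3.87 kb into the gene ranked slightly higher in K43M, at 52.6, 57.8, 66.4 and 67.1. The strictly K43M-only region lay 30.2 kb past the start, at the promoter of the unnamed gene *Gm44646*, with pileups of 16 and 11.

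*Runx1* (chr16:92601466-92826149, minus strand) had 12 regions, 6 of them in all 4 lists. Which of its promoter areas set the genotypes apart depended on the measure. The distal promoter P1 had fold enrichments of 7.11, 7.65, 6.21 and 6.06, percentiles of 71.7, 75.2, 73.6 and 73.6 and pileups of 53, 49, 56 and 50. The genotypes overlapped in percentile and in pileup, while both WT lists had the higher fold enrichment. The proximal promoter P2, about 129 kb further in, comprises 2 of the defined promoters, which share their peaks. Its main region (chr16:92697177-92698117) had percentiles of 49.1, 31.4, 84.5 and 72.8. The pileups were 24 (15.4 to 35.7) and 16 (9.15 to 26) in the WT lists and 68 (52.8 to 86.2) and 48 (35.4 to 63.6) in the K43M lists. The fold enrichments of 7.06, 5.59, 7.99 and 6.14 overlapped between the genotypes. A second shared region beside it (chr16:92696627-92697020) had pileups of 20, 14, 42 and 44. On the other side a strictly K43M-only region (chr16:92698270-92698965) had a pileup of 35 in both K43M lists. The nearest WT peaks to it were 479 and 663 bp away. The open stretch at P2 was thus wider in the K43M lists.

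The fold enrichment at P2 differed less than the pileup because the local background, against which MACS2 sets it, was itself higher. The local background is the density of read ends around a peak, given here as a multiple of the genome-wide background of the same list. No control library is named, so it is taken from the same read ends, including those of the peak and its neighbours. It is therefore not independent of the pileup. Around the main P2 region it was 1.94 and 1.8 in WT and 6.93 and 7.21 in K43M, a ratio of the means of 3.78. Around P1 it was 5.05, 4.88, 7.42 and 7.67, a ratio of 1.52. The median ratio over the 21012 shared regions of the genome was 1.08, and by the size of this ratio the 2 shared P2 regions were numbers 11 and 12 of the 21012. They are neighbours and count as 1 observation, which was singled out after its values were seen. The lowest ratio at the 10 loci was 0.525, at the region 14.7 kb upstream of *Etv6*, number 20836. Over all shared regions of the 10 loci the local background was higher in both K43M lists than in both WT lists in 30 of 54 (55.6%), against 40.1% of all shared regions, and higher in both WT lists in 4 (7.41%), against 16.2%. The copy number of these loci was not tested. On chromosome 16 as a whole the local background at shared regions lay -0.21, -0.20, -0.26 and -0.13 (log2) from the median of the autosomes in the 4 lists.

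**Figure D3:**
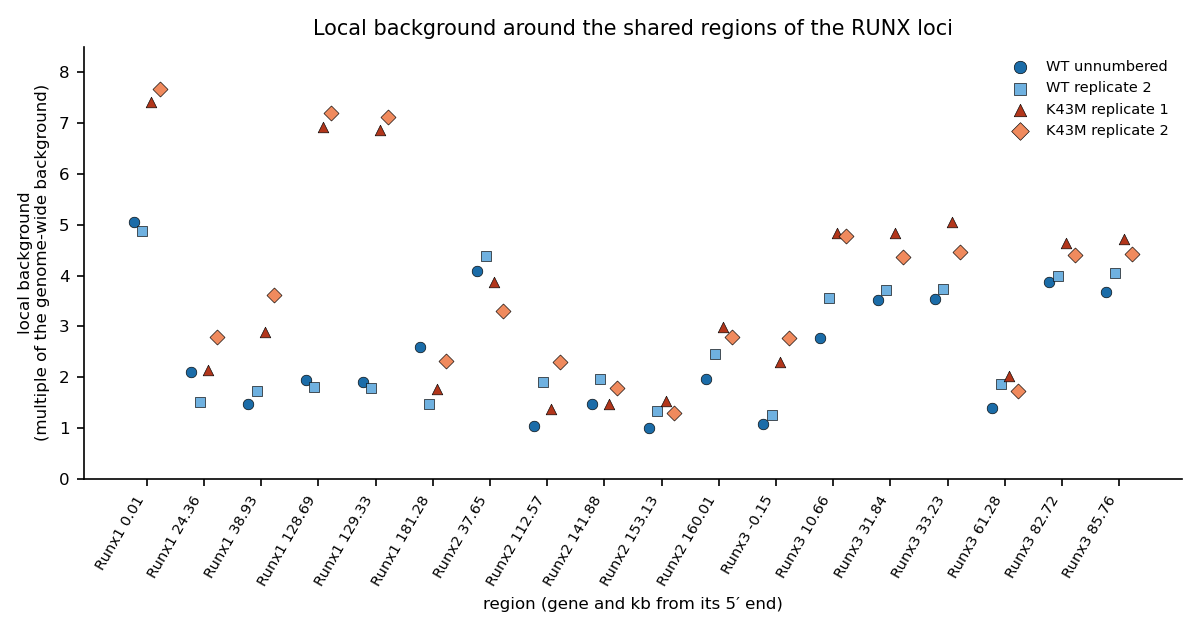
Local background around the 18 regions of the RUNX loci with a peak in all 4 lists (y axis, as a multiple of the genome-wide background of the same list, from 0), ordered along each gene, with 1 point per list. At the *Runx1* regions 128.69 and 129.33 kb from the 5′ end the K43M lists lie between 6.86 and 7.21 and the WT lists between 1.78 and 1.94.

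Inside *Runx1* the stretch between P1 and P2 held shared regions 24.4 and 38.9 kb from the 5′ end. The first (chr16:92801430-92802206) had percentiles of 52.2, 32, 47.1 and 49.1 and overlapped between genotypes. The second had 11.3, 15.7, 66.8 and 30.4 and ranked higher in K43M. A region 205 kb from the 5′ end (chr16:92620702-92621695) had no peak in WT unnumbered, a pileup of 12 in WT replicate 2 and pileups of 45 and 41 in the K43M lists. The region at 181 kb pointed the other way, with percentiles of 57.4, 52.5, 41.8 and 9.61.

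*Runx2* (chr17:44495987-44814797, minus strand) is the longest of the genes at 319 kb. Its distal promoter P1 had no peak in any list. Its proximal promoter P2 had a peak in 3 lists, with fold enrichments of 5.11, 5.03 and 6.46 in WT replicate 2, K43M replicate 1 and K43M replicate 2. The pileups of 13, 14 and 22 were low, and WT unnumbered had no peak within 33452 bp. The introns were open at several places in every list. The strongest region (chr17:44654496-44655227), 160 kb from the 5′ end, had fold enrichments of 17.6, 15.6, 13.5 and 13.8 and percentiles of 94, 93, 90 and 91.2. Both WT lists ranked it slightly higher. At 153 kb (chr17:44661509-44662269) the fold enrichments were 5.2, 7.54, 8.89 and 11.1, and both K43M lists were higher. The region 37.6 kb from the 5′ end is the promoter of *Supt3*, a gene that overlaps the *Runx2* locus (90.1, 85.3, 87.8 and 88.4). The strictly K43M-only region at 221 kb was weak, with pileups of 11 and 9.

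The strongest *Runx2* region also held GAGGAAGT. It is shown because it holds these letters, and it also ranks highest among the intronic regions of the RUNX loci. The sequence is on the plus strand of mm10, opposite to the gene, at chr17:44654691-44654891, again with the reverse complement in capitals.
Runx2 intronic region, all 4 lists: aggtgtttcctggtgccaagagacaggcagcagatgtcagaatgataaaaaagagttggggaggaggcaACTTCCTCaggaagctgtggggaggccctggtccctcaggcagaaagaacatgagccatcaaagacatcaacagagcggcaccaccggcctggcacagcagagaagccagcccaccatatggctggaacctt

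*Runx3* (chr4:135120652-135177990, plus strand) had 12 regions, 7 in all 4 lists, of which 5 ranked higher in both K43M lists and none in both WT lists. Its distal promoter P1 (chr4:135120173-135120728) had the widest gap in percentile among these 7. The fold enrichments were 8.33, 8.26, 13.1 and 13, and the percentiles 48.9, 53.1, 84.3 and 89.1. The pileups were 19 in both WT lists (11.4 to 29.7) and 45 (32.8 to 60.2) and 47 (34.5 to 62.5) in the K43M lists. The WT lists were close to each other and so were the K43M lists, by every one of these values. The local background around P1 was also higher in K43M, at 1.07, 1.25, 2.29 and 2.77, a ratio of 2.18 that is number 235 of the 21012. Its part in the gap in pileup was not tested. The proximal promoter P2 was weaker, differed less and held neighbouring shared regions. The one at 31.8 kb had percentiles of 21.1, 24.7, 37.4 and 35.6 and pileups of 22, 21, 27 and 23. The one at 33.2 kb had percentiles of 20.8, 29.8, 41.7 and 19.8 and pileups of 22, 22, 29 and 20, and the genotypes overlapped. A region 10.7 kb into the gene had percentiles of 69.7, 68.7, 82.1 and 77.7, and one 61.3 kb from the 5′ end, past the gene, 58.7, 64, 74.3 and 78.7. The strictly K43M-only region at 15.7 kb (chr4:135136222-135136778) had fold enrichments of 5.76 and 6.92 and pileups of 27 and 26, and the nearest WT peaks were 4642 and 4725 bp away. A region at 39.7 kb was open in 3 lists, without WT unnumbered, at percentiles 30.2, 55.2 and 53.8.

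RUNX motifs, TGTGGTT on either strand, occurred within 100 bp of the summit of both distal promoters that were open, those of *Runx1* and *Runx3*. At *Runx1* the match began 93 bp before the summit on the plus strand, near the edge of that window. At *Runx3* there were 2 matches, 1 base apart, which began 8 and 16 bp past the summit. The 201 bp around the summits are shown because these promoters, compared above, hold the motif. Both are on the plus strand of mm10, from chr16:92826034-92826234 (opposite to *Runx1*) and chr4:135120402-135120602 (the strand of *Runx3*), with the motif or its reverse complement in capitals.
Runx1 P1: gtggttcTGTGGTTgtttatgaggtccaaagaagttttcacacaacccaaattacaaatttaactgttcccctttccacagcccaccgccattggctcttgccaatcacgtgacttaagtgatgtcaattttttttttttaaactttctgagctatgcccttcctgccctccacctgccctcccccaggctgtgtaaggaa
Runx3 P1: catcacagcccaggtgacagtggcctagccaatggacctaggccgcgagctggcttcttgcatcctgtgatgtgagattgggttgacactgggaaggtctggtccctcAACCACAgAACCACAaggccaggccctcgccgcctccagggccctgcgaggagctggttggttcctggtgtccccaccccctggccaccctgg

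Across the 121 regions the share with a motif did not exceed that of the genome. An ETS motif, CCGGAAGT or GAGGAAGT on either strand within 100 bp of the summit, lay in 7 regions (5.79%, interval 2.83 to 11.5%), against 9.07% of all regions on assembled chromosomes. A RUNX motif lay in 9 (7.44%, interval 3.96 to 13.5%), against 9.71%. The letters AGGATGTGG, counted as an ETS and RUNX composite, hold GGAT in place of GGAA and only TGTGG of the RUNX core. They were found in 1 region, against 1.36% of all regions. That region was a peak of K43M replicate 1 alone, 95.2 kb from the first start of *Ets1*. Outside promoters the shares were 6.59% for ETS, against 8.99%, and 7.69% for RUNX, against 12.1%. A match is a description of the letters and not a binding site, and these windows are short.

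The shared regions were then compared by rank. Of the 54 shared regions, 20 (37%, interval 25.4 to 50.4%) had a higher percentile in both K43M lists than in both WT lists, against 26.6% of all such regions. For 10 (18.5%) both WT lists were higher, against 18.3%. The median difference between the mean percentiles was 3.02 points (K43M minus WT) at the loci and 0.893 points over all shared regions, while the median gap between lists of 1 genotype was 6.06 points in WT and 7.82 in K43M at the loci. The counts were also taken by family, a split made after the values were seen and with no test of the difference. At the RUNX loci, 10 of 18 shared regions were higher in both K43M lists and 2 in both WT lists, and at the ETS loci 10 and 8 of 36. By locus, 5 of 7 were higher in K43M at *Runx3*, 3 of 6 at *Runx1* and 2 of 5 at *Runx2*. Ranking the peaks by fold enrichment instead lowered the RUNX count to 5 of 18 and the total to 13 of 54, against 23.5% of all shared regions. The number higher in both WT lists was then also 13 of 54, against 18.9%. Ranking by pileup left the RUNX count at 10 of 18. The total was then 22 of 54, against 29.3% of all shared regions, and 7 were higher in both WT lists, against 18.9%. The *Runx3* P1 values were apart by either measure. Without WT unnumbered the RUNX count was 16 of 23 (against 39.6% of all shared regions), and without K43M replicate 1 the ETS count was 17 of 37 (against 36.4%). Regions of 1 locus are not independent, and neighbouring ones share their background.

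**Figure D4:**
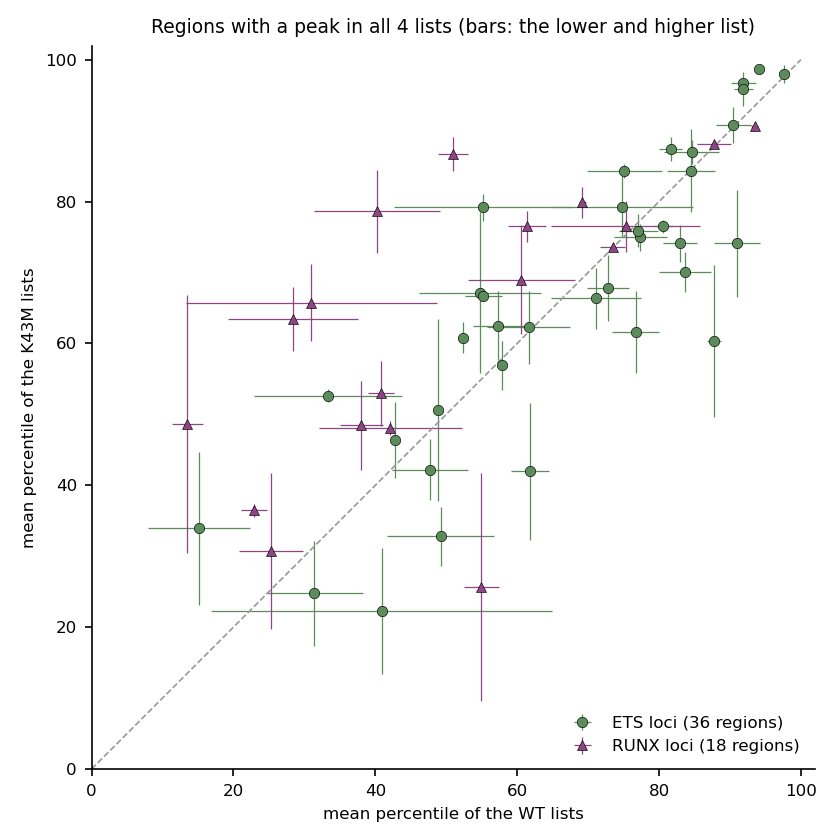
Mean percentile of the K43M lists (y axis) against that of the WT lists (x axis) for the 54 shared regions. Bars run from the lower to the higher list of a genotype, circles are ETS loci and triangles RUNX loci, and the dashed line marks equal values; triangles lie above the line more often than below it, and circles are on both sides.

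Promoters of the other genes of the family gave a comparison by a list of 19 further ETS genes. Of these, 13 had a promoter peak in all 4 lists (against 47.5% of protein-coding genes), 2 in some and 4 in none. Among the strongest were *Gabpa*, which encodes the DNA-binding subunit of GABP (percentiles 97, 96, 96.6 and 97.7), and *Etv5* (96.3, 92.1, 95.8 and 95.8). By the best promoter peak of a gene, both K43M lists ranked higher at 4 of the 13, *Ets2* (52.1, 64, 79.2 and 86.8), *Elk3*, *Elk4* and *Elf3*. Both WT lists did at 1, *Etv1* (81.4, 67.1, 65.4 and 65.1). Over all protein-coding genes with a promoter peak in all 4 lists these shares were 27% and 15.5%. *Elf5* and *Ehf* had a promoter peak in 1 and 2 lists, and *Etv2*, *Spic*, *Spdef* and *Fev* in none. Of 9 partner genes, 7 had a promoter peak in all 4 lists, against the same 47.5%. *Cbfb*, the common partner of the RUNX factors, was among them (92.4, 88, 97 and 90.8). Both WT lists ranked higher at 3 of the 7. These were *Irf4*, whose product binds DNA with PU.1 (71.3, 80.3, 60.1 and 56.4), *Irf8* by a small margin (88.8, 87.3, 84.5 and 85.3) and *Tcf3* (86.1, 82.5, 70.3 and 81.1). Both K43M lists did at 1, *Cbfa2t3* (37.2, 49.4, 59.8 and 67.1). *Gata2* and *Runx1t1* had no promoter peak in any list.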

How the data were processed

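The data were 4 lists of ATAC-seq peaks, 1 per library. According to the study's methods, reads were trimmed with Trimmomatic 0.36 and aligned with bwa-mem 0.7.15 to mm10. Blacklisted regions, multimapping and low-quality reads were removed with bedtools and SAMtools 1.3.1. Peaks were called with MACS2 2.1.0 with a shift of -100 and an extension of 200 bp, so that a pileup counts cut sites around a position. The deposited values used here are the fold enrichment, a ratio of summit to background set by the authors' peak caller, and the -log10 p and q values that came with each peak. They belong to single lists, depend on depth, and were ranked within a list. Read totals are not known from the lists. The summit pileup and the background were recovered from fold enrichment and -log10 p by the Poisson model of MACS2, for 100% of peaks. The genome-wide background was 65.3, 56.7, 55.1 and 48.4 read ends per 10 kb, so K43M replicate 2 was the shallowest by this measure.

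Peaks of the lists were merged by 1 bp overlap. Annotation was GENCODE mouse release 21 on GRCm38, the build of the lists, and sequence was the RefSeq copy of that build. For a region, the strongest peak by -log10 q stood for each list. Peaks per list were compared by a two-sided exact permutation test, and shares carry 95% Wilson intervals. No test across regions was made. The regions described were every promoter of the 10 genes, every strictly genotype-only region and, for each locus, the shared region outside promoters with the highest lowest percentile. Regions described beyond these, among them the other shared regions, were chosen after their values were seen. Sequences were printed for those regions and promoters that held an ETS or RUNX motif. The members, gene lists and motifs were chosen with earlier results of these data known. Groups came from the sample labels, and from the series' design text for WT unnumbered, whose data had an earlier deposit. The alternatives changed the number of peaks, the overlap, the flanks, the promoter window, the transcripts, the ranking measure, the motif window and the libraries included. The code was tested on simulated data. Python 3.11.15, numpy 2.4.6, pandas 2.3.3, scipy 1.17.1 and matplotlib 3.10.9 were used. Expression and CDK6 binding were not analysed here.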

Additional observations from a re-analysis of the deposited data

How the results depend on the processing

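Of 87 recomputed values, 68 kept the direction of the difference or stayed within 1.5 times the count, or within the interval of the share. The difference in peaks per list (K43M minus WT) turned to -0.5 when every list was reduced to the length of the shortest, and ranged from -1 to 9 when a library was left out. With the best 20000 peaks of each list, 35 of 75 regions had a peak in all 4 lists, as did 7 of 23 promoters. Of the 35, 11 ranked higher in both K43M lists, against 26.8% of all shared regions, and 7 in both WT lists, against 16.5%. With percentiles by fold enrichment, 13 shared regions ranked higher in both K43M lists, 5 of them at the RUNX loci, and 13 ranked higher in both WT lists. Ranking by summit pileup, the split by family and the local background were added after seeing the data. Leaving out 1 library lets a single list stand for its genotype, so the counts rise: strictly WT-only regions ranged from 7 to 15, strictly K43M-only regions from 12 to 17, shared regions ranked higher in K43M from 26 to 29 and in WT from 17 to 19. At the RUNX loci the count ranged from 11 to 16, the highest without WT unnumbered (of 23 shared regions), and at the ETS loci from 13 to 17, the highest without K43M replicate 1 (of 37). The local background was higher in K43M in 35 to 45 of 55 to 62 shared regions, against 49.2 to 56.9% of all. In the same settings 36.4 to 45% of all shared regions of the genome ranked higher in K43M. Promoters with a peak in all remaining lists ranged from 11 to 13. No paired analysis was possible because the groups share only replicate number 2. Peak lists show neither read totals nor the signal where no peak was called, so a region without a peak may hold signal under the limit of detection.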

Other observations

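The values nearest to the limits of the loci depended on where the limit of 30 kb fell. A strictly WT-only region lay 1.9 kb beyond the downstream limit of *Etv6*, at a best percentile of 14.9, and a strictly K43M-only region 0.779 kb beyond the downstream limit of *Fli1*, at 57.6. Just inside, the *Spib* locus took in a shared region that began 0.044 kb within its downstream limit (best percentile 97.4), and the *Elf1* locus a region that began 0.368 kb within its upstream limit (86.7). Between the windows of *Fli1* and *Ets1* lay 2 regions, a peak of WT unnumbered alone and a region with a peak in all 4 lists (chr9:32591741-32592097), at percentiles 49.1, 51.9, 58.1 and 58.4, where both K43M lists were higher.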
